A study of Mus musculus with 2 samples.

Results

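The extracellular matrix genes outside the collagens and laminins were read here as 43 named genes among the 35529 of the deposited expression table. They were chosen by symbol from what their proteins are known to be, and the rule that selects them uses names and no measured value. All 43 were found in the table. The tissue was mouse colon in 2 groups. The adenoma pool held RNA from colon adenomas of C57BL/6 wild-type mice treated with AOM (azoxymethane, a chemical that causes colon tumours) and DSS (dextran sodium sulfate, an agent that damages the gut lining). The control pool held RNA from the normal colons of C57BL/6 wild-type mice that received neither agent. The sources used here give no doses, schedule or ages. The RNA of 6 individuals went into each pool and each pool was sequenced as 1 library, so differences between animals cannot be seen, no test between the groups can be made, and no p-value is given. Values are RPKM, read numbers divided by gene length and by the size of the library.

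The matrix between cells is built mainly by fibroblasts, smooth muscle cells and other stromal cells. Elastin is deposited on microfibrils of fibrillins with the help of fibulins and is cross-linked by lysyl oxidases, while latent TGF-beta binding proteins tether the growth factor TGF-beta to the same fibres. Small leucine-rich proteoglycans such as decorin bind collagen fibrils, and perlecan and the nidogens hold the basement membrane under the epithelium together. Matricellular proteins, among them thrombospondins, tenascins, periostin and the CCN proteins, do little structural work and alter how cells attach to and sense the matrix. In bulk tissue, fewer cells that make a transcript and less of it per cell cannot be told apart.

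In the adenoma pool the matrix genes lay mostly below the control pool, but not evenly. Tenascin X (Tnxb), the TGF-beta binding protein Ltbp4, thrombospondin 4 (Thbs4), the fibulin Efemp1 and the SPARC relative Sparcl1 were lower by between 3.36- and 11.5-fold. Decorin (Dcn), lumican (Lum), Efemp2 and the cross-linking enzyme Lox had higher values in the adenoma pool, by between 1.52- and 2.29-fold. Several of these genes stand in contrasting pairs within 1 family, so the make-up of the matrix transcripts differed between the pools as well as their sum.

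Promoter windows are shown for 6 genes. Among matrix genes with a RefSeq window and at least 1 RPKM in either pool, Tnxb, Ltbp4, Thbs4 and Efemp1 had the lowest log2 fold changes. Efemp2, a relative of Efemp1, had the highest. Cyr61, a known target of the YAP and TEAD transcription factors, was added. Each window runs from 250 bases before to 50 bases after a RefSeq transcript start on GRCm38.p6, 5′ to 3′ on the strand of the gene. Capitals mark matches on either strand. The motif searched for TEAD factors was GGAATG and the motif for AP-1 factors was TGANTCA. The motif of the GC box was GGGCGG, and that of the core promoter box known by its adenine and thymine letters was TATAAA. The CArG box of serum response factor was also searched. RefSeq lists 3 starts each for Ltbp4 and Efemp2, and the first is shown.

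The window of Tnxb is chr17:34670285-34670584 on the plus strand, that of Ltbp4 is chr7:27337563-27337862 on the minus strand, and that of Thbs4 is chr13:92794769-92795068 on the minus strand.
Tnxb: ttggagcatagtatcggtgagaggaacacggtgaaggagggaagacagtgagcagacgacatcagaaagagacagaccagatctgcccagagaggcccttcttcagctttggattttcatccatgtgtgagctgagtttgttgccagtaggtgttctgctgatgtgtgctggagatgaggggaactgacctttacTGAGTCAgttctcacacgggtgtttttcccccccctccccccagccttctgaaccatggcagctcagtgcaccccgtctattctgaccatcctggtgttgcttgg
Ltbp4: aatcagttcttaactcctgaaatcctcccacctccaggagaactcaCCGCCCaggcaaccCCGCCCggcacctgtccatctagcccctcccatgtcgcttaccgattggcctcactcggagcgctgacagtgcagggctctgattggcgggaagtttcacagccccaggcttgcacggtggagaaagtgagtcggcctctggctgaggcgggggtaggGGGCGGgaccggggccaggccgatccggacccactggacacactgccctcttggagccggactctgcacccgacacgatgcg
Thbs4: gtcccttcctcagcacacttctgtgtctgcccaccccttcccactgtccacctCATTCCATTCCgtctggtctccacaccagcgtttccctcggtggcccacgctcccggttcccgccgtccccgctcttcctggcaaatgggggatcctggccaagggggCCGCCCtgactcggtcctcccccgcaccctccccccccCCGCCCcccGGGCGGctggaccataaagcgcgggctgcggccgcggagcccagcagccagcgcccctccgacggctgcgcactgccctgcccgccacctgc

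The window of Efemp1 is chr11:28852955-28853254 on the plus strand, that of Efemp2 is chr19:5473696-5473995 on the plus strand, and that of Cyr61 is chr3:145649936-145650235 on the minus strand.
Efemp1: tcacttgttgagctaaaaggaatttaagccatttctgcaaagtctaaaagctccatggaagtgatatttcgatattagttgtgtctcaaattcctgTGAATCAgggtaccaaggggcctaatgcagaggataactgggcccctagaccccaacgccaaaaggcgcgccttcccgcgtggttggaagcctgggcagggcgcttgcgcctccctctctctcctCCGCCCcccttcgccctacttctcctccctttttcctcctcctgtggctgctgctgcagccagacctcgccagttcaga
Efemp2: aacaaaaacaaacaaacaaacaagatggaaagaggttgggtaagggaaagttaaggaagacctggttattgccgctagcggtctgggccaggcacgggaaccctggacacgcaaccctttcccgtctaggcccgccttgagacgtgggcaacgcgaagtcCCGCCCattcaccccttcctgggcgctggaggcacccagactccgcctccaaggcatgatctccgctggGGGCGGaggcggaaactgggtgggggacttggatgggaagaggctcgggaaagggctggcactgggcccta
Cyr61: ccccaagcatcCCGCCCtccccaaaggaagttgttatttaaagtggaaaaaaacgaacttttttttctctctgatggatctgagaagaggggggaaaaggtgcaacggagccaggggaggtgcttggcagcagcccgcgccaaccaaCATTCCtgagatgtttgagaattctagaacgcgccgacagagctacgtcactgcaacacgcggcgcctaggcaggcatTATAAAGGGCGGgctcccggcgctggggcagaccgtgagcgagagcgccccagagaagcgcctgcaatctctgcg

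The 6 windows hold different sets of matches. Positions are given relative to the transcript start. Tnxb has a single AP-1 match at -55 and Ltbp4 has 3 GC boxes. Thbs4 has a pair of TEAD matches on the opposite strand that share 1 base, at -197 and -192, and 3 GC boxes. Efemp1 has an AP-1 match at -154 and a GC box, whereas Efemp2 has 2 GC boxes and neither of the other motifs. Cyr61 has a TEAD match at -103, a TATAAA match at -25 with a GC box directly after it, and a second GC box. RefSeq windows were found for 28 of the 43 genes, 39 windows in all. The TEAD letters were in 15.4% of these 39 windows, against 14.7% of all 32851 windows of the same length. TATAAA was in 15.4% against 13.6%, AP-1 letters in 7.69% against 7.81%, GC boxes in 61.5% against 35.7%, and the CArG box in 0 of 39 against 1.63%. A match describes letters and does not show that a factor binds there.

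Read totals recovered from the table were 33174626 for the adenoma pool and 29548883 for the control pool, and 24984 and 24718 genes were above 0. Reads per matrix gene came to between 18 and 16267 in a pool, and the 95% intervals given with ratios are exact binomial intervals that cover counting error only. The RPKM of all genes summed to 828667 in the adenoma pool and 629215 in the control pool. Rescaling both pools to equal sums would lower every log2 fold change, the median of all genes included, which would stand at -0.34 in place of -0.02.

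Differences were taken as log2((adenoma RPKM + 1)/(control RPKM + 1)), called the log2 fold change below, which understates the differences of low genes. Of the 43 matrix genes, 37 had at least 1 RPKM in either pool. Of these 37, 14 were lower in the adenoma pool by 2-fold or more on this scale, a share of 37.8%, against 11.0% of the 16517 genes of the table that passed the same filter. None of the 37 was at least 2-fold higher, against 14.0% of all genes. With equal sums 18 of the 37 were 2-fold lower, against 19.1% of all genes, and 0 were 2-fold higher, against 7.31%. On the deposited scale their median log2 fold change was -0.75, against -0.02 for all genes and -0.17 for mRNA genes. Of the 37, 29 lay below 0, against 50.8% of all genes and 58.3% of mRNA genes past the filter. The last genes inside the 2-fold line were Cyr61 at -1.07 and Nid1 at -1.04, and the first outside it were Bgn at -0.90 and Fn1 at -0.87. The 6 genes under the filter were Fbn2, Ltbp1, Ltbp2, Loxl4, Fmod and Vcan.

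**Figure D1:**
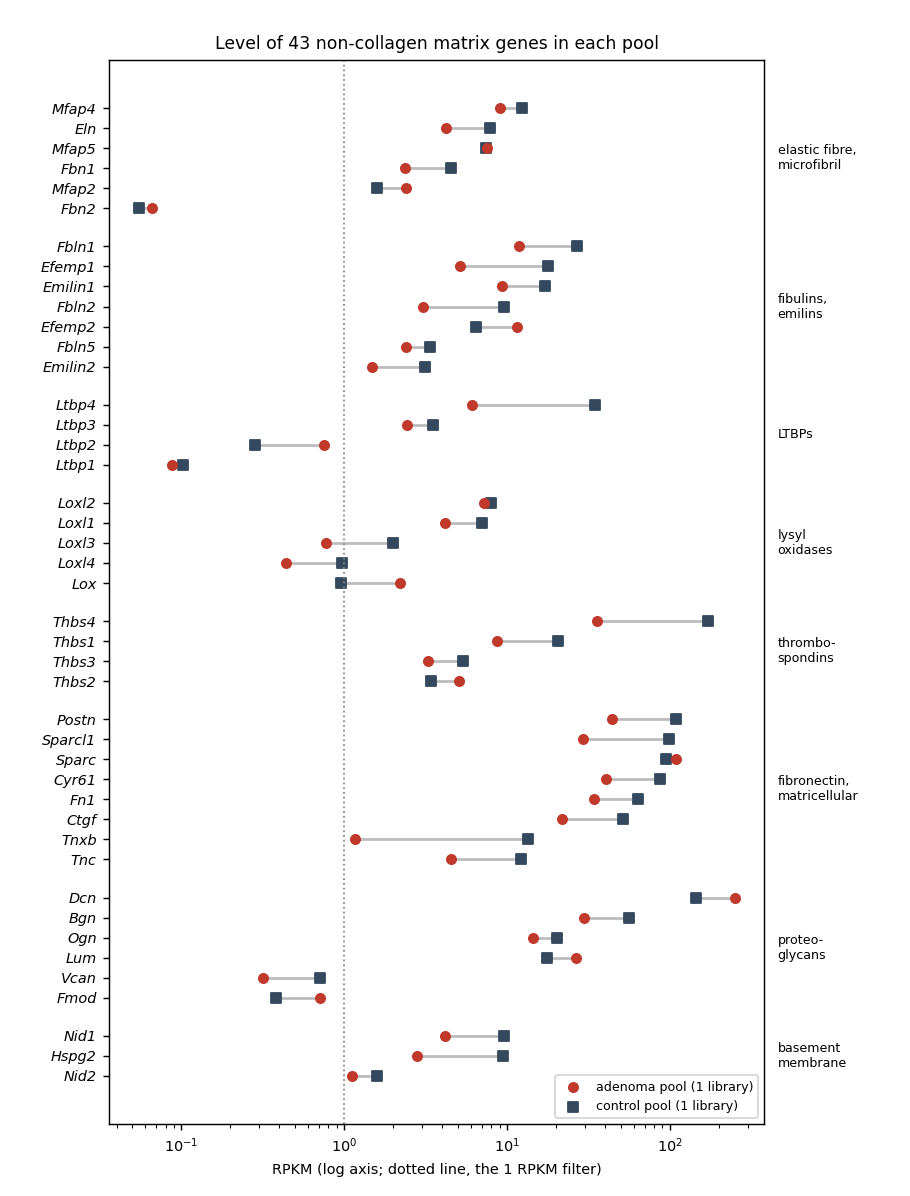
RPKM of each of the 43 matrix genes in the adenoma pool and the control pool, on a log10 axis, grouped by role; each point is 1 pooled library, so there are no error bars. The dotted line is the filter of 1 RPKM. Tnxb, Ltbp4 and Thbs4 show the widest gaps with the adenoma pool to the left (lower), while Dcn, Lum, Efemp2 and Lox are among the genes with the adenoma pool to the right.

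The rank order of the levels was largely shared between the pools, with a Spearman correlation across the 43 genes of 0.91 (genes of the same 2 libraries, given as a description). The sum over the 43 genes was 763 RPKM in the adenoma pool and 1167 RPKM in the control pool, or 0.0920% and 0.185% of all RPKM. In the adenoma pool the highest genes were Dcn, Sparc, Postn, Cyr61 and Thbs4, which held 63.0% of the sum. In the control pool they were Thbs4, Dcn, Postn, Sparcl1 and Sparc, with 53.0%. There were 13 genes at or above 10 RPKM in the adenoma pool and 19 in the control pool. Without Dcn and Thbs4, the highest gene of each pool, the sums were 477 and 850 RPKM. Because both genes were left out together, these sums do not show the part of Thbs4 alone.

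Long transcripts had lower fold changes throughout this table. Across 12748 mRNA genes past the filter the Spearman correlation of transcript length with log2 fold change was -0.55, and across the 37 matrix genes it was -0.34 (both across genes, given as descriptions). Matrix genes were long, with a median transcript of 3852 bases against 2822 for mRNA genes. The mRNA genes were split by length into 4 classes of equal size. In the shortest class 4.67% were at least 2-fold lower, then 7.75%, 14.0% and, in the longest, 26.4%. Of the matrix genes, 0 of 3 were 2-fold lower in the shortest class, then 4 of 10, 3 of 10 and, in the longest, 7 of 14. After subtraction of the running median over length, 8 of the 37 stayed at least 2-fold lower, or 21.6%, against 11.0% of 15532 genes. These 8 were Tnxb, Ltbp4, Thbs4, Sparcl1, Efemp1, Postn, Ctgf and Cyr61. The 6 others, Fbln1, Fbln2, Thbs1, Tnc, Hspg2 and Nid1, were no longer past 2-fold, Lox was 2-fold higher, against 4.95% of all genes, and the median was -0.49, against -0.20 for all genes. The calls of Postn and Lox depended on the adjustment: Postn was at -0.89 with the longest transcript of each gene as its length, and Lox was at 0.95 once GC content was adjusted for as well. What gave rise to the length trend was not tested.

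**Figure D2:**
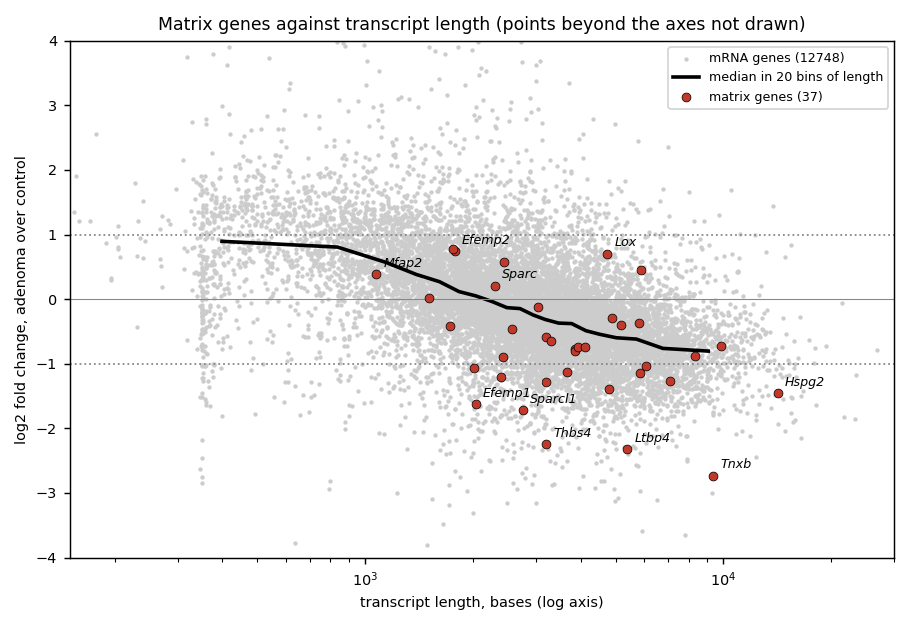
Log2 fold change (adenoma over control, RPKM + 1) against transcript length in bases on a log10 axis for mRNA genes (grey) and the 37 matrix genes past the filter (coloured), with the running median of mRNA genes as a line, 2-fold as dotted lines, and points beyond the axes not drawn. The running median falls with length; Tnxb, Ltbp4 and Thbs4 lie well below it, and Efemp2 and Lox above it.

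The core of the elastic fibre was only moderately lower. Elastin itself (Eln), the rubber-like protein of the fibre, had 4.21 RPKM in the adenoma pool and 7.90 RPKM in the control pool, 1.88-fold lower (1.68 to 2.09). Fibrillin 1 (Fbn1), the main microfibril protein of adult tissue, had 2.37 RPKM in the adenoma pool and 4.54 RPKM in the control pool, a log2 fold change of -0.72 that was -0.09 after length adjustment. Of the exon bases of Fbn1, 20.1% overlap Gm9913 on the opposite strand. Fibrillin 2 (Fbn2), which is mainly embryonic, was at 0.0662 and 0.0549 RPKM, near the limit of detection in both pools. Of the microfibril-associated glycoproteins, Mfap4 had 9.03 RPKM in the adenoma pool and 12.4 RPKM in the control pool. Mfap5 had 7.49 and 7.40 RPKM, with a counting interval of the ratio that spans 1 (0.871 to 1.18), and its sign turned with the scaling. Mfap2 had 2.40 RPKM in adenomas and 1.60 RPKM in control, 1.502-fold higher (1.04 to 2.14), but this short transcript of 1073 bases was lower after length adjustment, at -0.40. None of the 5 genes past the filter was 2-fold apart, against 11.0% of all genes lower and 14.0% higher, and their median was -0.42.

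The fibulins and emilins, which connect elastin to microfibrils and cells, were lower in 6 of 7 cases, against 50.8% of all genes past the filter. Of the 7, 3 were lower by at least 2-fold, against 11.0% of all genes, and the median was -0.81. After length adjustment 1 of 7 was 2-fold lower, against 11.0% of all genes. Efemp1 (chr11:28853204-28926743 in GENCODE M21 on GRCm38), a fibulin of connective tissue, had 5.11 RPKM in the adenoma pool and 17.9 RPKM in the control pool, 3.50-fold lower (3.10 to 3.97). Its nearest relative Efemp2, which is needed for elastin cross-linking and recruits lysyl oxidase, stood the other way at 11.4 RPKM in adenomas and 6.44 RPKM in control, 1.78-fold higher (1.56 to 2.03). Both are short transcripts (2037 and 1781 bases), and after length adjustment the log2 fold changes were -1.85 for Efemp1 and 0.42 for Efemp2. Fbln2 had 3.05 RPKM in the adenoma pool and 9.59 RPKM in the control pool, 3.14-fold lower (2.83 to 3.50). Fbln1, which binds fibronectin and basement membrane proteins, had 11.8 and 27.1 RPKM, 2.29-fold lower (2.15 to 2.44). Both fell just short of 2-fold lower after length adjustment, at -0.99 and -0.93. Fbln5, an elastin-binding fibulin, had 2.38 RPKM in adenomas and 3.35 RPKM in control, with a length-adjusted value of 0.10. Emilin1 had 9.28 RPKM in the adenoma pool and 17.0 RPKM in the control pool, and Emilin2 had 1.47 and 3.12 RPKM, log2 fold changes of -0.81 and -0.74.

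Among the latent TGF-beta binding proteins, Ltbp4 dominated in normal colon and was the gene that differed most. Ltbp4 (chr7:27305136-27337692, minus strand), which holds latent TGF-beta in the matrix and assists elastic fibre assembly, had 6.14 RPKM in the adenoma pool and 34.6 RPKM in the control pool, 5.65-fold lower (5.29 to 6.03). Length adjustment left it at -1.89. Ltbp3 had 2.42 RPKM in adenomas and 3.50 RPKM in control, with a length-adjusted value of 0.03. Its transcript is nearly as long as that of Ltbp4 (5190 and 5386 bases). Ltbp2, which binds microfibrils but not TGF-beta, was under the filter at 0.753 RPKM in adenomas and 0.282 RPKM in control, a ratio of 2.67 (1.96 to 3.70) from 165 and 55 approximate reads. Ltbp1 was at 0.0878 and 0.103 RPKM, too low to rank.

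The lysyl oxidases cross-link elastin and collagen. Lox, the founding enzyme of the family, had 2.19 RPKM in the adenoma pool and 0.958 RPKM in the control pool, 2.29-fold higher (1.87 to 2.82) from 345 and 134 approximate reads. On the log2(RPKM + 1) scale this was 0.70, short of 2-fold, and it was 1.10 after length adjustment and 0.95 after adjustment for length and GC content. Loxl1, the form tied to elastic fibre upkeep, had 4.14 RPKM in adenomas and 7.06 RPKM in control, 1.70-fold lower (1.51 to 1.92). Loxl2, which acts on type IV collagen, had 7.26 and 7.97 RPKM, with a counting interval of the ratio that spans 1 (0.820 to 1.01). Loxl3 had 0.778 RPKM in adenomas and 1.98 RPKM in control, and 11.6% of its exon bases overlap Htra2 on the opposite strand. Loxl4 had 0.438 and 0.965 RPKM and was under the filter. Of the 5 enzymes, only Lox was higher in the adenoma pool, and the sum over the family was 14.8 RPKM in adenomas and 18.9 RPKM in control.

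The thrombospondins are secreted proteins that bind calcium, matrix and cell receptors. Thbs4 (chr13:92751590-92794818, minus strand), found in muscle and tendon matrix, was the most abundant matrix gene of the control pool. It had 35.5 RPKM in the adenoma pool and 172 RPKM in the control pool, 4.85-fold lower (4.69 to 5.03), from 3762 and 16267 approximate reads. Thbs1, an activator of TGF-beta and inhibitor of vessel growth, had 8.71 RPKM in adenomas and 20.5 RPKM in control, 2.35-fold lower (2.22 to 2.49). Thbs2, which is closely related to Thbs1 and also restrains vessel growth, had 5.05 RPKM in adenomas and 3.43 RPKM in control, 1.47-fold higher (1.33 to 1.63). The transcripts of Thbs2 and Thbs1 have nearly the same length (5895 and 5848 bases), and both moved up by a like amount when length was adjusted for, to 0.92 and -0.68. Thbs3 had 3.26 RPKM in adenomas and 5.37 RPKM in control, a log2 fold change of -0.58.

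Fibronectin and the matricellular proteins held the largest share of 2-fold lower genes, 6 of 8, against 11.0% of all genes, with a median of -1.23. After length adjustment 5 of 8 were 2-fold lower, against 11.0% of all genes. Tnxb (chr17:34670535-34719815), tenascin X, whose loss in humans gives a form of Ehlers-Danlos syndrome with lax connective tissue, had 1.17 RPKM in the adenoma pool and 13.4 RPKM in the control pool. It was 11.5-fold lower (10.3 to 12.8), the widest ratio among the 43 genes, and stayed at -2.10 after length adjustment. Tenascin C (Tnc), a tenascin of developing and injured tissue, had 4.51 RPKM in adenomas and 12.2 RPKM in control, 2.71-fold lower (2.52 to 2.91), and was at -0.67 after length adjustment. Postn, periostin, made by fibroblasts and tied to collagen cross-linking, had 44.4 and 109 RPKM, 2.45-fold lower (2.37 to 2.54). Fn1, fibronectin, the adhesive protein bound by integrins, had 34.3 RPKM in the adenoma pool and 63.7 RPKM in the control pool. Its log2 fold change of -0.87 was -0.26 once its length of 8315 bases was adjusted for.

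Sparcl1 and Sparc, related calcium-binding glycoproteins, differed in the same group. Sparcl1 (chr5:104079111-104113733, minus strand) had 29.3 RPKM in the adenoma pool and 98.2 RPKM in the control pool, 3.36-fold lower (3.21 to 3.51). Sparc, which aids collagen deposition, had 110 RPKM in adenomas and 94.7 RPKM in control, a log2 fold change of 0.21 that turned to -0.18 with equal sums. The CCN proteins Cyr61 (current symbol Ccn1) and Ctgf (Ccn2) are secreted regulators of adhesion. Cyr61 had 40.7 RPKM in the adenoma pool and 86.5 RPKM in the control pool, 2.12-fold lower (2.03 to 2.23). Ctgf had 21.7 RPKM in adenomas and 51.2 RPKM in control, 2.36-fold lower (2.23 to 2.50). Both have short transcripts (2019 and 2398 bases) and moved further from 0 with length adjustment, to -1.30 and -1.28. Of the exon bases of Ctgf, 23.2% overlap Gm15270 on the opposite strand, and the sources used here do not say whether counting used strand.

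The proteoglycans were the only role group whose summed level was higher in the adenoma pool, at 322 RPKM against 240 RPKM in the control pool, and the sum rested on decorin. The ratio of these sums, 1.34, was close to that of all genes in the table, 1.32. Dcn had 249.99 RPKM in the adenoma pool and 145 RPKM in the control pool, 1.72-fold higher (1.68 to 1.77), and was the most abundant matrix gene of the adenoma pool. Lum, lumican, which like decorin regulates collagen fibril width, had 26.7 RPKM in adenomas and 17.5 RPKM in control, 1.52-fold higher (1.42 to 1.64). Dcn and Lum are neighbours on chromosome 10, 46985 bases apart. Length adjustment put Dcn at 0.44 and Lum at 0.52, and adjustment for length and GC content put them at 0.23 and 0.28. With the longest transcript as the length they were at 1.09 and 0.45. Bgn, biglycan, the closest relative of decorin and located on chromosome X, was lower at 29.8 RPKM in adenomas and 56.4 RPKM in control, 1.89-fold (1.80 to 1.99). Ogn, osteoglycin, had 14.5 and 20.2 RPKM, a log2 fold change of -0.46. Fmod, fibromodulin, had 0.712 RPKM in adenomas and 0.379 RPKM in control, and Vcan, the large proteoglycan versican, had 0.317 and 0.708 RPKM, both under the filter. None of the 4 genes past the filter was 2-fold apart, against 11.0% of all genes lower and 14.0% higher. Their median of 0.06 turned negative under equal sums, upper-quartile scaling, no filter and each length adjustment.

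The basement membrane components were lower in all 3 cases, where 50.8% of all genes past the filter lay below 0. Hspg2, perlecan, the heparan sulfate proteoglycan of basement membranes, had 2.80 RPKM in the adenoma pool and 9.44 RPKM in the control pool, 3.37-fold lower (3.16 to 3.59). Nid1, nidogen 1, which links laminin to type IV collagen, had 4.17 RPKM in adenomas and 9.63 RPKM in control, 2.31-fold lower (2.13 to 2.51). Nid2 had 1.11 and 1.59 RPKM, a log2 fold change of -0.30. Their transcripts have 14176, 6091 and 4876 bases, and after length adjustment the values were -0.83, -0.54 and 0.11, none past 2-fold.

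**Figure D3:**
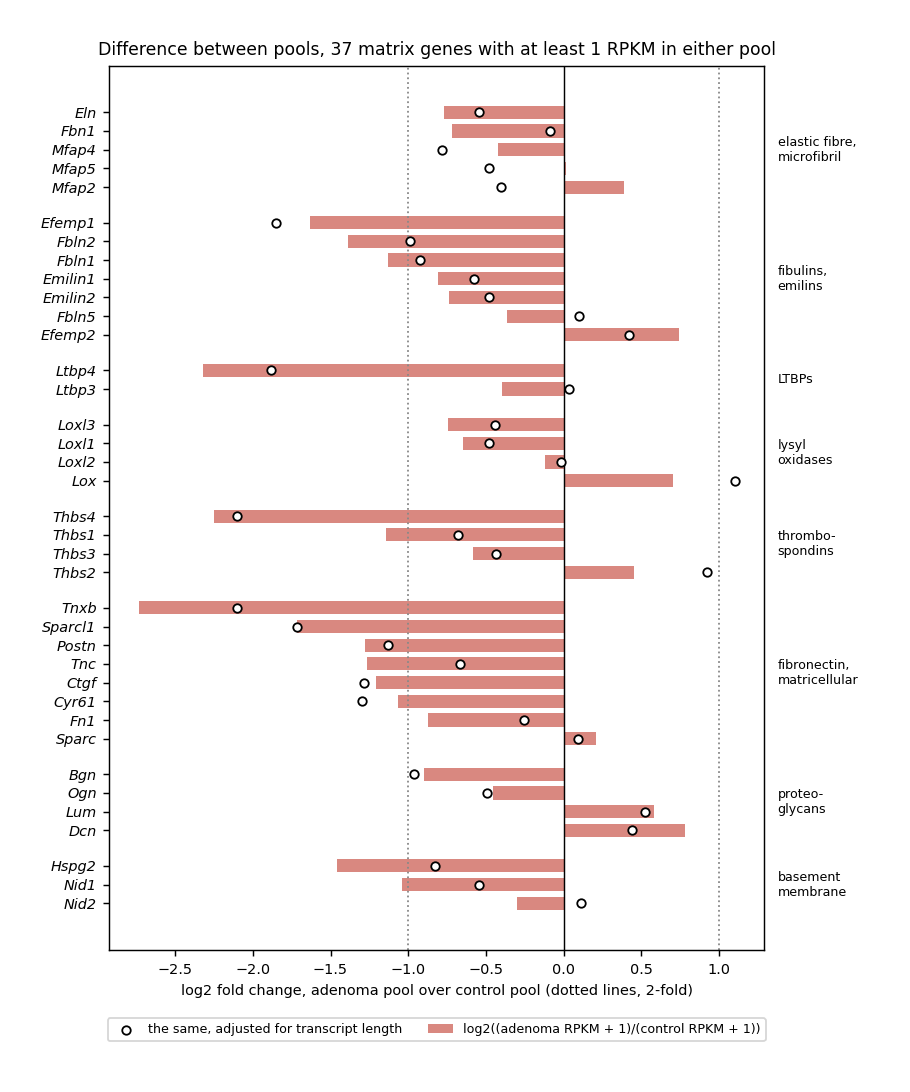
Log2 fold change (adenoma over control, RPKM + 1) of the 37 matrix genes past the filter as bars ordered by role, with the length-adjusted value as an open circle and dotted lines at 2-fold. Tnxb, Ltbp4 and Thbs4 keep values below -1.8 on both scales, whereas Fn1, Hspg2, Tnc and Nid1 move towards 0 and Lox moves to 1.10, past 2-fold higher (0.95 when GC content is adjusted for as well).

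Ratios between related genes within a pool do not depend on how the libraries were scaled. Where transcript lengths differ, as for Lox and Loxl1 (4741 and 3297 bases), the length trend can still enter them. The pairs were chosen after the values had been seen, and their intervals are normal approximations on approximate reads that cover counting error only. Efemp2 stood at 2.24 times Efemp1 in the adenoma pool and 0.360 times in the control pool, a 6.22-fold difference (5.21 to 7.44), so the more abundant of the pair was not the same gene in the 2 pools. Sparc stood at 3.75 times Sparcl1 in adenomas and 0.964 times in control, 3.89-fold apart (3.68 to 4.11), although the control ratio lies close to 1. Thbs2 was 0.580 of Thbs1 in adenomas and 0.168 of it in control, 3.46-fold apart (3.08 to 3.89). Lox was 0.529 of Loxl1 in adenomas and 0.136 of it in control, 3.90-fold apart (3.09 to 4.91). In each of these pairs the first gene gained on the second in the adenoma pool. Dcn stood at 8.38 times Bgn in adenomas and 2.57 times in control, and Lum at 0.894 and 0.310 times Bgn. Ltbp4 went the other way relative to Ltbp3, at 2.53 times in adenomas and 9.89 times in control, 3.90-fold lower (3.38 to 4.50). Thbs4 over Thbs1 (4.07 in adenomas, 8.41 in control) and Nid1 over Nid2 (3.75 and 6.04) were also lower in adenomas. Mfap5 over Mfap4 was higher, at 0.830 in adenomas and 0.596 in control.

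**Figure D4:**
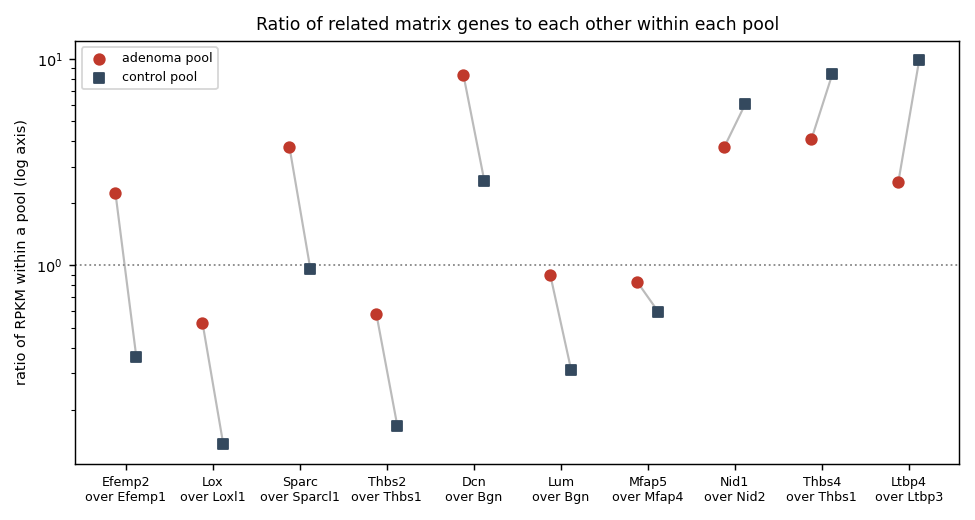
RPKM ratio of related matrix genes within the adenoma pool and within the control pool on a log10 axis, with 1 library per point. The ratios of Efemp2 to Efemp1 and of Sparc to Sparcl1 lie on opposite sides of 1 in the 2 pools, and the ratio of Ltbp4 to Ltbp3 is the one furthest below its control value in adenomas.

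Among other glycoproteins and proteoglycans of the matrix, more genes were 2-fold higher than 2-fold lower. Of 48 such genes 34 passed the filter, 9 of them 2-fold higher or more and 4 of them 2-fold lower or more (26.5% and 11.8%, against 14.0% and 11.0% of all genes), with a median of -0.13. Spock2, a secreted proteoglycan related to Sparc, had 102 RPKM in the adenoma pool and 1.63 RPKM in the control pool, 62.2-fold higher. Spp1, osteopontin, which is also made by macrophages and epithelium, had 19.5 RPKM in adenomas and 0.379 RPKM in control. Mgp, matrix Gla protein, an inhibitor of calcification, had 601 and 58.1 RPKM, 10.3-fold higher. The others at least 2-fold higher were Srgn, Wisp2, Igfbp7, Smoc2, Egfl7 and Lgals1, and those lower were Ecm1, Prelp, Hmcn2 and Thsd4. After length adjustment 6 were 2-fold higher and 3 lower (17.6% and 8.82%, against 4.95% and 11.0% of all genes). Srgn, Igfbp7, Egfl7, Lgals1 and Thsd4 were then no longer past 2-fold, and Npnt was, at 1.34. The most abundant was the galectin Lgals3, at 1074 RPKM in adenomas and 1278 RPKM in control.

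Because Cyr61 and Ctgf are standard targets of YAP and TEAD, 22 other genes known as such targets were read beside them. Of 20 past the filter, where 11.0% of all genes were lower and 14.0% higher, 5 were at least 2-fold lower (Crim1, Lats2, Nuak2, Amotl2 and Asap1) and 1 was at least 2-fold higher (Jub, current symbol Ajuba), with a median of -0.60. After length adjustment 4 were lower and 2 higher (20% and 10%, against 11.0% and 4.95% of all genes). Asap1 was then at -0.79 and Rbms3 at 1.22, and the median was -0.23, against -0.20 for all genes. Crim1 had 1.17 RPKM in the adenoma pool and 6.01 RPKM in the control pool. Lats2, a kinase that restrains YAP, had 1.17 and 5.35 RPKM, and the kinase Nuak2 had 2.58 and 9.33 RPKM. The most abundant of the list not among the matrix genes, Nt5e, had 19.9 RPKM in adenomas and 32.3 RPKM in control.

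Collagens and laminins, read with the same measure, also held many 2-fold lower genes before length adjustment and few after it. Of 20 collagen genes past the filter, 9 were at least 2-fold lower, or 45%, against 11.0% of all genes. None was higher, against 14.0%, and the median was -0.73. After length adjustment 3 were lower, or 15%, against 11.0% of all genes, and the median was -0.29. The type VI collagens Col6a2 and Col6a1 had 15.6 and 18.3 RPKM in the adenoma pool against 53.1 and 55.3 RPKM in the control pool, and Col14a1 had 1.40 against 5.77 RPKM. The most abundant, Col3a1, had 95.9 RPKM in adenomas and 112 RPKM in control. Of 9 laminin genes past the filter 4 were lower, or 44.4%, and none higher, with a median of -0.25. After length adjustment none was lower, 2 were higher, or 22.2%, against 4.95% of all genes, and the median was 0.19. Lamc1 had 4.63 RPKM in adenomas and 12.5 RPKM in control, Lamb1 had 8.26 and 19.9 RPKM, and Lama4 had 3.26 and 7.84 RPKM. Lamb3, an epithelial laminin chain and the most abundant, had 30.2 and 26.7 RPKM.

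Markers of stromal, epithelial and immune cells were summed beside the matrix genes. A few abundant genes carry most of such sums. Of all genes past the filter, 11.0% were at least 2-fold lower and 14.0% at least 2-fold higher. The shares 2-fold lower were 7.14% of fibroblast, 16.7% of endothelial, 42.9% of epithelial and 50% of smooth muscle markers. After length adjustment these shares were 0%, 8.33%, 42.9% and 0%, against 11.0% of all genes. Fibroblast markers summed to 295 RPKM in adenomas and 360 RPKM in control, with 1 of 14 at least 2-fold lower, and 3 of these markers are collagens. Smooth muscle markers summed to 1813 and 2232 RPKM, with 5 of 10 at least 2-fold lower and a median log2 fold change of -0.83. After length adjustment 0 were 2-fold lower, against 11.0% of all genes, but the median was still -0.78. Pericyte markers summed to 34.1 RPKM in adenomas and 41.2 RPKM in control (0 of 6 lower), endothelial markers to 77.9 and 108 RPKM (2 of 12 lower, 1 higher), and enteric neuron and glia markers to 30.7 and 44.2 RPKM (0 of 7). Mesothelial markers other than Krt19, which epithelium also makes, summed to 1.86 RPKM in adenomas and 1.71 RPKM in control, with Lrrn4 listed at 0 in adenomas. Epithelial markers, which define the colonic mucosa, summed to 4338 and 6382 RPKM (3 of 7 lower). Macrophage markers summed to 593 RPKM in adenomas and 380 RPKM in control (1 of 10 higher, 1 lower), with a median log2 fold change of -0.07. That sum was mostly C1qa (169 and 80.8 RPKM), C1qb (179 and 112 RPKM) and C1qc (139 and 83.1 RPKM), while Csf1r, Emr1, Mrc1, Itgam and Cd163 were below their control values. After length adjustment C1qa, C1qb and C1qc were at 0.24, -0.11 and 0.04, and the median of the 10 macrophage markers was -0.26. Neutrophil markers summed to 389 RPKM in adenomas and 115 RPKM in control (3 of 4 higher). Of these, S100a8 had 120 and 0.777 RPKM and S100a9 had 175 and 0.693 RPKM, while Ly6g, which made up nearly all of the control sum, had 83.2 RPKM in adenomas and 113 RPKM in control. The part of these cell types in the matrix values was not tested.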

How the data were processed

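RNA was extracted with Trizol from colon adenomas and from normal colon, and 1 library was made from the pooled RNA of 6 individuals per group, per the labels. The series text names Proton sequencing and the library protocol Illumina. The submitters' processing notes name GRCh37, a human build, although the symbols are those of mouse. For aligner, counting, strand and annotation the entry is "not given in the sources used here". Both pools stand in 1 table of RPKM that the authors deposited, per the file headers.

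Genes reaching 1 RPKM in one pool or both were compared as log2((adenoma + 1)/(control + 1)), with 2-fold as the line. Read totals were recovered from single-exon short RNA genes, for which 1 read gives a fixed product of RPKM and length. Approximate reads used the longest GENCODE M21 transcript (GRCm38) that is paired with a curated RefSeq RNA, otherwise the longest. With these lengths 29.4% of low values in the adenoma pool and 29.0% in the control pool came within 0.02 of whole reads, so reads and intervals are approximate. Length adjustment subtracted the running median over 20 length bins of mRNA genes and added back their median. All 43 genes are named. Of each list of other matrix, YAP target, collagen and laminin genes the 3 widest log2 fold changes and the most abundant gene are named. Marker lists are given by sums and counts. Further genes named from any list were chosen with their values known. The genes and lists were chosen with earlier results of these data known. Python 3.11.15, numpy 2.4.6, pandas 2.3.3 and scipy 1.17.1 were used. The arithmetic of the fold calls, the counting intervals and the length adjustment was tested on reads simulated with the same transcript lengths. That check does not cover errors in those lengths, and the other steps were not tested in this way.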

Additional observations from a re-analysis of the deposited data

How the results depend on the processing

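No paired analysis was possible because each group is 1 library. For the 37 genes past the filter, the counts of 14 lower and 0 higher and the median of -0.75 changed most with length, threshold and pseudocount. A pseudocount of 0.1 gave 16 lower and 1 higher (Lox), against 2858 and 3000 of the 16517 genes past the filter. A pseudocount of 5 gave 8 lower and 0 higher, against 654 and 1309 of all genes, and a median of -0.40. A line at 1.5-fold gave 22 lower and 3 higher, against 4067 and 4245 of all genes. A line at 4-fold gave 3 lower and 0 higher, against 179 and 333 of all genes. Equal sums gave 18 lower, against 19.1% of all genes, and a median of -0.99. Over all genes, equal sums gave 1208 higher and 3158 lower, in place of 2316 and 1809. Adjustment for length gave 8 lower, 1 higher and a median of -0.49, against 1708 lower and 769 higher of 15532 genes. Adjustment for length and GC content gave 8 lower, 0 higher (Lox at 0.95) and -0.49, against 1670 lower and 752 higher of all genes. Adjustment for the longest transcript, added after the data were seen, gave 8 lower, 2 higher (Lox and Dcn) and -0.58, with Postn no longer lower by 2-fold (-0.89) and Fbln2 lower (-1.07). Of all genes, 1742 were then lower and 883 higher. Filters, median-ratio scaling, upper-quartile scaling and a trimmed mean left the counts within 1.5 times of these and the median between -0.65 and -0.90. No called gene reversed under any of these settings. Signs of uncalled genes turned for Mfap5 and Sparc with equal sums, Mfap5 with the upper quartile, and Fbln5, Ltbp3, Mfap2, Mfap5 and Nid2 with length (also Loxl2 with GC content or the longest transcript). Depth limits Fbn2 and Ltbp1, with at most 24 approximate reads a pool. With 1 library per group, no setting measures the spread between animals.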

Other observations

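Prox1, a transcription factor of lymphatic endothelium and of some other cell types, was 1 of 2 endothelial markers among 12 with a higher value in adenomas. The other was Cldn5, at 10.03 RPKM in the adenoma pool and 4.66 RPKM in the control pool. Prox1 had 11.1 RPKM in the adenoma pool and 0.352 RPKM in the control pool, 31.6-fold higher (25.4 to 39.9, counting error only), while the lymphatic marker Lyve1 had 5.76 RPKM in adenomas and 12.7 RPKM in control. Among the smooth muscle markers, the long transcript Myh11 had 61.0 RPKM in the adenoma pool and 178 RPKM in the control pool, whereas the short transcript Tagln had 597 and 558 RPKM. After length adjustment their log2 fold changes were -0.97 and -0.35. These genes were chosen after their values were seen.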
